A study of Mus musculus with 7 samples.

Results

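Bulk RNA levels of a subcutaneous mouse tumor treated with 4H2, an antibody against PD-1, were set against those of a tumor that received vehicle, both taken at day 21. The comparison uses 2 of the 7 libraries of the study, chosen by their labels, and covers 13998 of the 21892 genes listed. An exon 19 deletion of Egfr is present in these tumors, which were kept by passage as subcutaneous grafts in C57BL/6 mice. All 4 groups of day 21 had first received gefitinib, an inhibitor of the EGFR kinase, for 14 days. The next 7 days brought 4H2, 4H2 together with DC101 (an antibody against the VEGF receptor VEGFR2), DC101 alone, or vehicle. The vehicle group of day 21 is named vehicle in its title, while its treatment field records no treatment for those 7 days. The other 3 libraries are gefitinib for 3 days, gefitinib for 14 days and a day 3 vehicle group. Each group is 1 library, and the number of animals behind it was not given in the labels. There is therefore no replicate spread, no test was run, and every difference is one between 2 libraries.

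PD-1, encoded by Pdcd1, is a receptor on activated T cells that dampens signalling from the T cell receptor when it binds PD-L1 (Cd274) or PD-L2 (Pdcd1lg2) on tumor cells or myeloid cells. T cells released from this brake secrete interferon gamma, to which many cells answer by making the chemokines Cxcl9 and Cxcl10, guanylate binding proteins, antigen presentation genes and PD-L1 itself. Genes of these steps are given in that order after the make-up of the 2 tumors, because the tissues that contributed RNA to the 2 libraries differed widely.

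Levels are in TPM, transcript abundances normalized for gene length, and a difference is log2((TPM + 1) in 4H2 / (TPM + 1) in vehicle), so that 1 is 2-fold and the added 1 makes the differences of low genes smaller. Genes whose TPM averaged 1 or more across all 7 libraries were compared, which left out 7894 genes, 4188 of them listed at 0 in every library. At this limit, Alox15 was just inside with 0.5 TPM in 4H2 and 0.4 TPM in vehicle, and Efna3 was just outside, listed at 0 in 4H2 and at 1.8 TPM in vehicle. In the 4H2 library 1528 genes (10.9%) were at least 2-fold higher and 2797 (20%) at least 2-fold lower than in the vehicle library. Where a list has counts near these shares, its count says little about the list. By at least 8-fold, 260 genes were higher and 531 lower. The median over all genes compared was -0.21. Levels rescaled without muscle genes and genes at least 2-fold higher with DC101, or by the median of ratios, moved that median up by 0.23. List medians near 0 should be read against this shift.

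**Figure D1:**
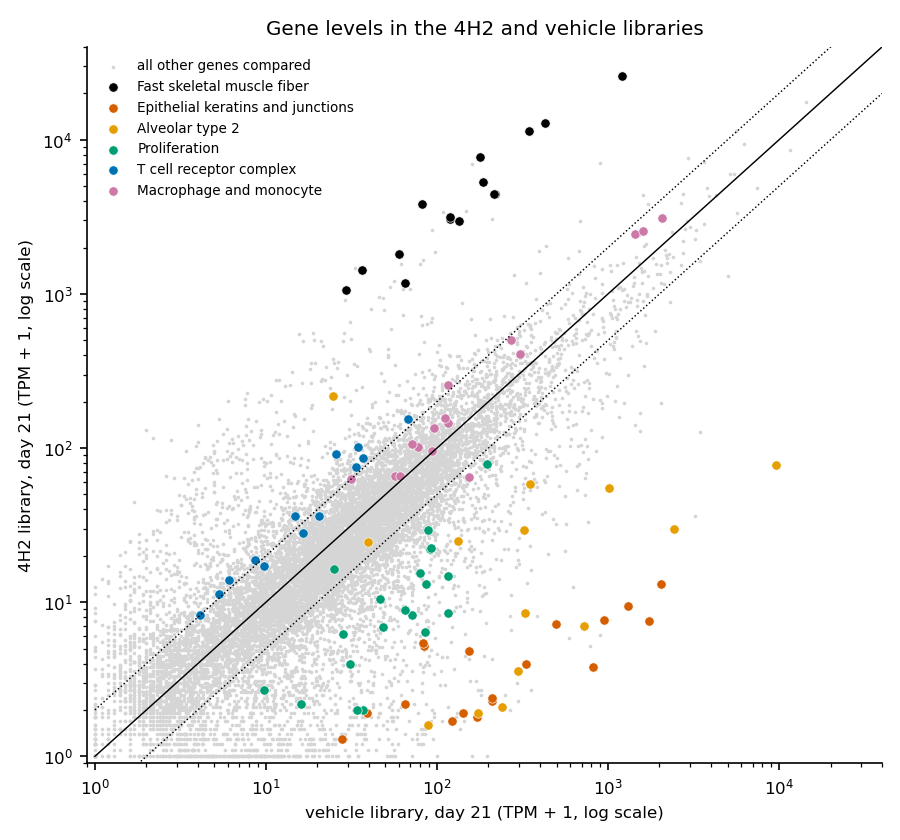
Each point is 1 gene, with TPM + 1 in the vehicle library across and in the 4H2 library up the page, both on log scales; the solid line marks equal levels and the dotted lines 2-fold differences. Fast muscle genes (black) all lie above the upper dotted line, epithelial genes (red) all lie below the lower one, and the T cell receptor genes (blue) lie close to or above the upper one.

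The largest differences upward were those of skeletal muscle. All 15 genes of fast muscle fibers were higher in 4H2, by 4.19 to 5.55 on the log2 scale with a median of 4.83. Acta1, the actin of skeletal muscle, was at 26090 TPM in 4H2, against 1201 TPM in vehicle. Myh4, the myosin of the fastest fibers, was at 7684 TPM in 4H2, against 176.5 TPM in vehicle. Pvalb, a calcium buffer of fast fibers, was at 3828 TPM in 4H2, against 80.7 TPM in vehicle. The fast fiber genes together made up 9.07% of all TPM in 4H2 and 8.97% in the combination library, against 1.95% in the DC101 library and 0.341% in vehicle. Both libraries with 4H2 thus held most muscle RNA, and the DC101 library also stood above vehicle.

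The promoters of Acta1 and Myh4 are shown because these genes, 21.7-fold and 43.5-fold higher in TPM, carry a large part of the difference between the 2 libraries. The 250 bases before each RefSeq start (GRCm38.p6) are printed 5′ to 3′ on the strand of the gene, with matches on either strand in capitals: the E-box CANNTG, bound by muscle regulatory factors such as MyoD, the CArG box of serum response factor, and the MEF2 site.
Acta1 (chr8:123894776-123895025, minus strand): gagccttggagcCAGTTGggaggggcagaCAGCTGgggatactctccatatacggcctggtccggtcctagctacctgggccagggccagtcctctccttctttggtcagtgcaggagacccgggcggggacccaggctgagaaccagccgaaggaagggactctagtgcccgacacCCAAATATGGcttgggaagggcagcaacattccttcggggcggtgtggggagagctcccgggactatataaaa
Myh4 (chr11:67237562-67237811, plus strand): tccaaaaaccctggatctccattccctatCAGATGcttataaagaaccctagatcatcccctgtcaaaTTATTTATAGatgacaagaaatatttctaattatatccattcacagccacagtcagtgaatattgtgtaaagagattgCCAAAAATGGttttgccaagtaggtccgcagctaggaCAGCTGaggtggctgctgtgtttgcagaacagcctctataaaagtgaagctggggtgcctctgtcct
Each window holds 2 E-boxes and 1 CArG box, and that of Myh4 also holds 1 MEF2 site. Of 32851 windows of the same length from 27025 genes, 66.2% hold an E-box, 1.47% a CArG box and 2.92% a MEF2 site. Of the 13 windows matched to the fast fiber list, 10 hold an E-box, 2 a CArG box and 3 a MEF2 site. These matches are descriptions of sequence.

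The muscle difference covered the whole fiber. All 15 genes of the excitation machinery and sarcomere scaffold were higher in 4H2 (median 4.29), among them Ryr1, the calcium release channel, at 938.5 TPM in 4H2 and 47.1 TPM in vehicle. Of 10 slow fiber genes 8 were higher (median 2.26), led by the oxygen store Mb at 3377 TPM in 4H2, against 107.6 TPM in vehicle, while Myh7, the slow myosin, was at 3.1 TPM in 4H2 and 1.1 TPM in vehicle. Fast myosin genes therefore stood far above the slow one in both libraries. Of 11 genes of muscle precursors and regeneration 9 were higher (median 1.87). Mstn, a secreted brake on muscle growth, was at 130.2 TPM in 4H2 and 1 TPM in vehicle, the largest difference among the genes named for being highest (6.04). Myod1, which commits cells to the muscle lineage, was at 25.6 TPM in 4H2, against 2.2 TPM in vehicle. The stem cell factor Pax7 did not pass the filter, at 0.3 TPM in 4H2 and 0.1 TPM in vehicle, and Myf5 was listed at 0 in both. The ligases of muscle wasting Trim63 and Fbxo32 were at 83.8 and 86.1 TPM in 4H2, against 7.4 and 20.2 TPM in vehicle. Myh4 relative to Myh1 within a library, a ratio that does not depend on scaling, was 1.72 in 4H2 and 0.809 in vehicle. It was 1.54 in the combination, 1.74 in DC101 and 1.81 in the day 3 vehicle library, so the 4H2 value was not particular to 4H2.

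Genes of the carcinoma cell lay on the other side. All 18 epithelial keratin and junction genes were lower in 4H2 (median -6.30, range -7.83 to -3.95). Epcam, an adhesion protein of epithelia, was at 3 TPM in 4H2, against 332.3 TPM in vehicle. Krt8, a keratin of simple epithelium, was at 6.6 TPM in 4H2, against 1731 TPM in vehicle, 262-fold more in vehicle. The epithelial list made up 0.00657% of TPM in 4H2, 0.0481% in the combination and 0.606% in DC101, against 0.898% in vehicle. The label of the 4H2 library is lung tumor, and its epithelial markers were close to 0. None of the 18 was listed at 0. In bulk tissue fewer cells of a type and less RNA per cell cannot be told apart.

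Lung lineage genes followed the same pattern. Of 14 genes of alveolar type 2 cells, the surfactant-making cells of the lung, 12 were lower in 4H2 (median -5.54). The surfactant protein genes Sftpb and Sftpc were at 76.2 and 28.8 TPM in 4H2, against 9561 and 2429 TPM in vehicle. Nkx2-1, the lung lineage transcription factor, was at 1.1 TPM in 4H2, against 238.3 TPM in vehicle. Lyz1 went against its list, at 216.9 TPM in 4H2 and 23.7 TPM in vehicle; its near-identical copy Lyz2, a macrophage gene, was at 7571 TPM in 4H2 and 2953 TPM in vehicle, so the value of Lyz1 is uncertain. Of 12 alveolar type 1 genes 7 were lower (median -1.76), with the receptor Ager at 11.6 TPM in 4H2 and 627.2 TPM in vehicle. Clic5, a further gene of that list, was higher, at 50.9 TPM in 4H2 and 4 TPM in vehicle. Of 7 gastric and gut genes 5 were lower (median -4.92, and 0 with no filter, when genes averaging under 1 TPM enter), including the nuclear receptor Hnf4a, listed at 0 in 4H2 and at 52.3 TPM in vehicle.

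**Figure D2:**
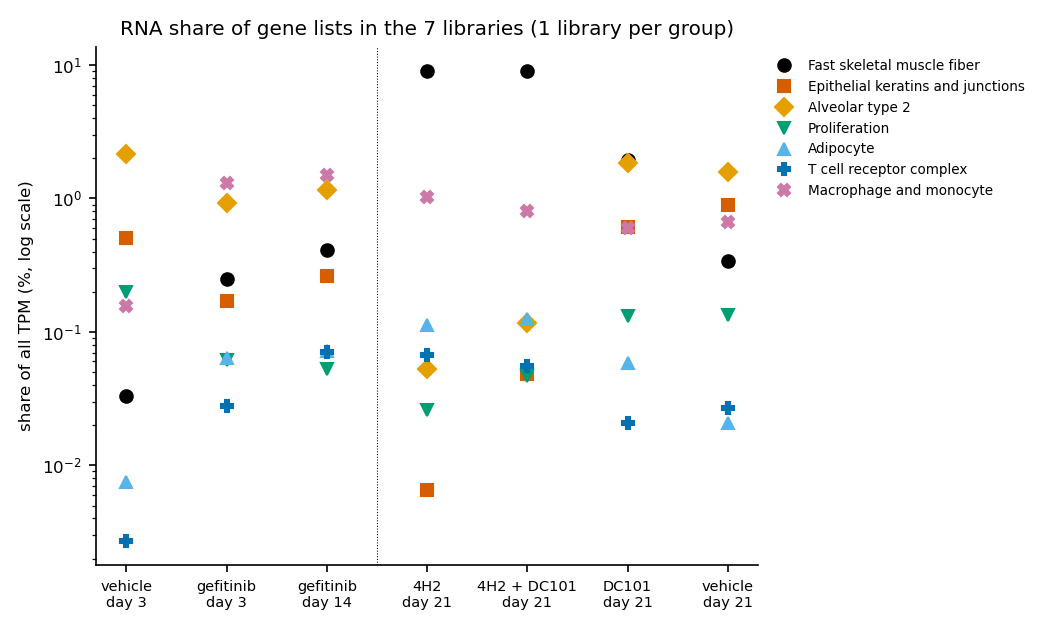
Share of all TPM (%, log scale) held by 7 gene lists in each of the 7 libraries, 1 library per group. The 4H2 library and the combination library hold about 9% fast muscle RNA, against 1.95% in DC101 and 0.341% in vehicle at day 21, and the epithelial share is lowest in 4H2 at 0.00657%.

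Genes of some other tissues were unequal too. Where this RNA came from was not tested. Of 10 adipocyte genes 9 were higher in 4H2 (median 2.48), with the fat cell hormone Adipoq at 31.3 TPM in 4H2 and 3.1 TPM in vehicle. The thermogenic gene Ucp1 was listed at 0 in both, and Pparg, the regulator of fat cell formation, was at 10 TPM in 4H2 and 11.5 TPM in vehicle. The adipocyte list made up 0.113% of TPM in 4H2 and 0.125% in the combination, where its median was 2.83, against 0.0588% in DC101 and 0.0209% in vehicle. Skin and hair follicle genes had a median of 0.18, with 3 of 10 higher and 1 lower, against 10.9% and 20% of all genes. The skin median was 0.89 with a pseudocount of 0.1 and 0.93 among genes averaging 5 TPM or more. Tchh, a hair follicle protein, was at 7.1 TPM in 4H2 and 220 TPM in the combination, against 1 TPM in vehicle. Genes of nerve had a median of 0.01. Muscle and fat RNA were therefore high in both libraries with 4H2, while among the libraries of day 21 hair follicle RNA was high in the combination.

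**Figure D3:**
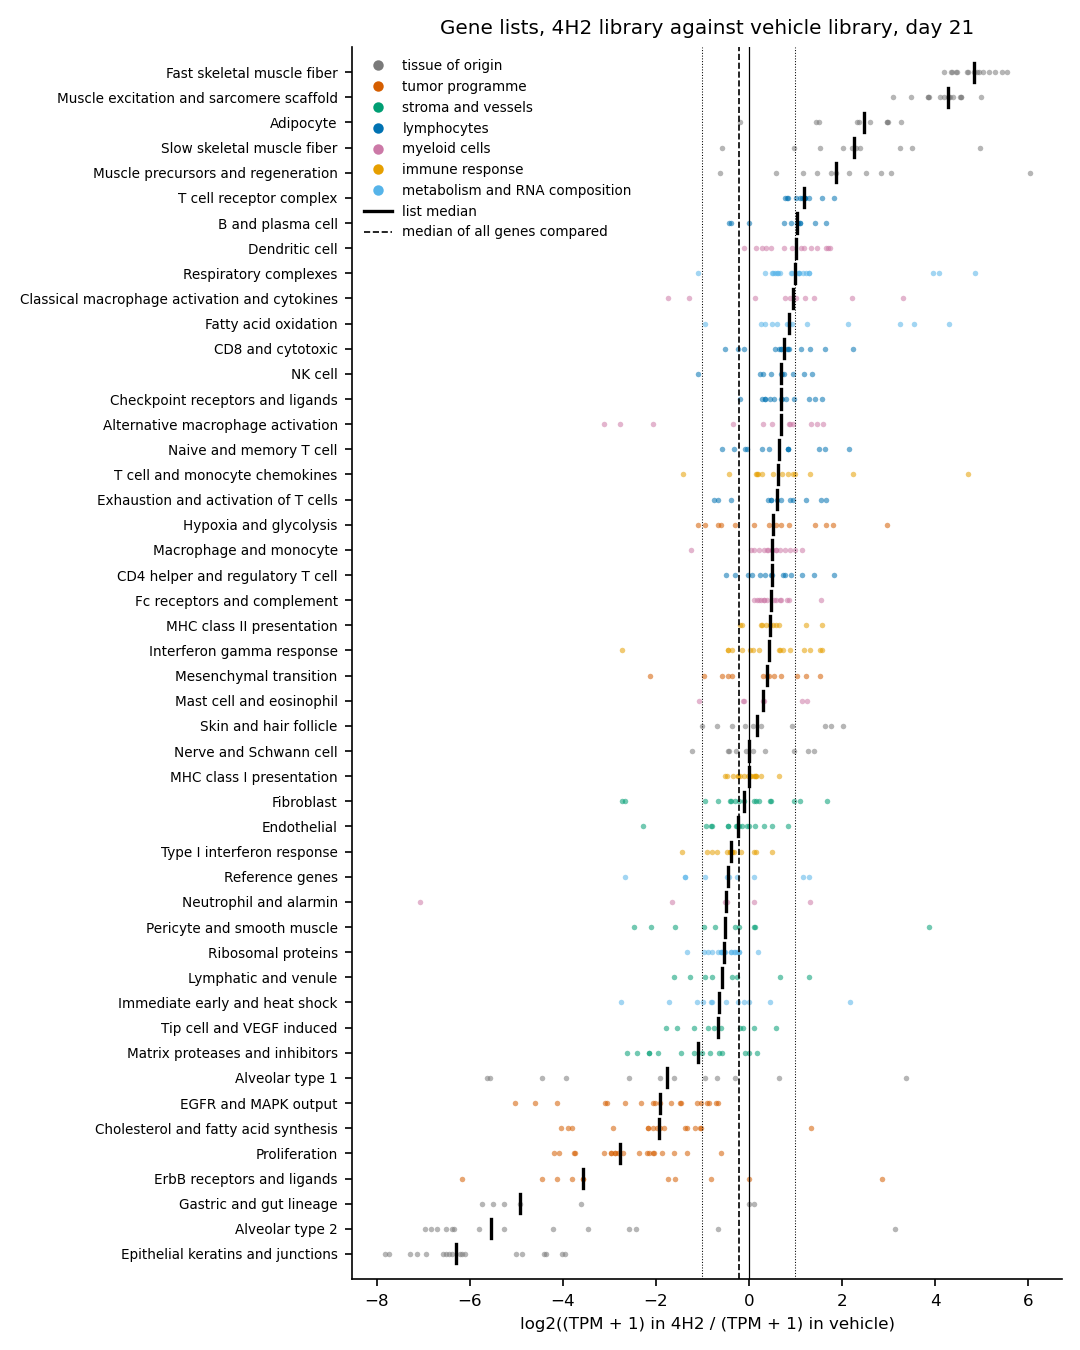
Difference in log2((TPM + 1)/(TPM + 1)) of 4H2 over vehicle for each gene (points) of 48 gene lists, sorted by list median (black bars) and colored by class; dotted lines mark 2-fold and the dashed line the median of all genes, -0.21. Muscle and fat lists lie at the top, the T cell receptor, B cell and dendritic cell lists follow with medians between 1.02 and 1.18, and epithelial, lung, ErbB and proliferation lists lie at the bottom.

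Genes of EGFR signalling and of proliferation were lower in the 4H2 library along with the epithelial genes. Several of them are also expressed by other cells of a tissue. All 19 genes of EGFR and MAPK signalling output lay below 0 and 15 were at least 2-fold lower (median -1.91). Egfr itself was at 19.4 TPM in 4H2, against 446.7 TPM in vehicle. Etv4, a transcription factor induced by MAPK signalling, was at 3.5 TPM in 4H2, against 145.7 TPM in vehicle. Dusp6, a phosphatase that damps ERK, was at 39.9 TPM in 4H2, against 338 TPM in vehicle. Of 11 ErbB receptors and ligands 8 were lower (median -3.56). Areg, a ligand of EGFR, was at 1.5 TPM in 4H2 and 179.1 TPM in vehicle, and the receptor Erbb3 was at 9.7 TPM in 4H2 and 148.6 TPM in vehicle. Egf alone of this list was at least 2-fold higher, at 25.2 TPM in 4H2 and 32.5 TPM in the combination, against 7.7 TPM in DC101 and 2.6 TPM in vehicle. Relative to Epcam, Egfr was 6.47 in 4H2 and 1.34 in vehicle, so Egfr was less depleted than the epithelial marker.

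Of 20 proliferation genes 19 were lower in 4H2 (median -2.77). The proliferation marker Mki67 was at 21 TPM in 4H2, against 90.3 TPM in vehicle, and the mitotic kinase Cdk1 was at 1 TPM in 4H2, against 32.9 TPM in vehicle. Mki67 over Epcam was 7 in 4H2 and 0.272 in vehicle, so proliferation genes were less depleted than the epithelial marker. Of 16 genes of cholesterol and fatty acid synthesis 15 were lower (median -1.94), among them the fatty acid synthase Fasn, at 48.6 TPM in 4H2 and 728.8 TPM in vehicle. The exception was Scd1, a desaturase abundant in fat tissue, at 195.4 TPM in 4H2 and 77 TPM in vehicle. The part that the lower epithelial share has in these differences was not tested.

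Genes of the T cell receptor complex were higher in the 4H2 library. Of 13 genes of the T cell receptor complex and its proximal signalling 10 were at least 2-fold higher and the other 3 also lay above 0 (median 1.18, range 0.77 to 1.82), against 10.9% of all genes higher. Cd3e, a chain of the receptor complex, was at 153.6 TPM in 4H2, 111.9 TPM in the combination and 46.9 TPM in DC101, against 66.3 TPM in vehicle. Lat, the adaptor that links the receptor to calcium signalling, was at 90.4 TPM in 4H2, 57.8 TPM in the combination and 18.4 TPM in DC101, against 24.8 TPM in vehicle. Both libraries with 4H2 stood above the other libraries of day 21. Before the antibodies, at day 14 of gefitinib, Cd3e had been at 167.7 TPM and at day 3 of gefitinib at 52.2 TPM, so the 4H2 library was close to the day 14 library. The summed TPM of the list was 2.46-fold that of vehicle, beside 1.54-fold for the macrophage list and 1.03-fold for the fibroblast list. With muscle genes and genes at least 2-fold higher with DC101 left out of the scale, the T cell receptor median was 1.43. Cd3e over Ptprc, a marker of all leukocytes, was 1.01 in 4H2 and 0.847 in vehicle. The part of the lower epithelial share in the TPM of immune genes was not tested.

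The co-receptor gene Cd4 differed more than Cd8a and Cd8b1. Cd4, the co-receptor of helper T cells, was at 84.2 TPM in 4H2, 64.2 TPM in the combination and 31.1 TPM in DC101, against 31.4 TPM in vehicle. Cd8a and Cd8b1, the chains of the co-receptor of killer T cells, were at 56 and 48.4 TPM in 4H2, against 30.6 and 29.7 TPM in vehicle. Cd8a over Cd4 was thus 0.665 in 4H2, 0.533 in the combination and 0.678 in DC101, against 0.975 in vehicle. Foxp3, the factor of regulatory T cells, was at 16.2 TPM in 4H2 and 11.4 TPM in vehicle. Foxp3 over Cd4 was 0.192 in 4H2 and 0.213 in the combination, against 0.28 in DC101 and 0.363 in vehicle, so regulatory relative to all CD4 transcripts was lowest in 4H2. Of 14 genes of helper and regulatory T cells 3 were at least 2-fold higher (median 0.49), against 10.9% of all genes. They were Cd4, Cd40lg, which helper T cells use to activate antigen-presenting cells, and Cxcr5. Ratios within a library have no replicate check either.

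The cytotoxic genes were uneven. Of 14 genes of CD8 and cytotoxic cells 4 were at least 2-fold higher and none lower (median 0.76). Over all genes 10.9% were higher and 20% lower. Ccl5, a chemokine secreted by activated T cells, was at 1332 TPM in 4H2, 902.3 TPM in the combination and 213.2 TPM in DC101, against 280.8 TPM in vehicle. Tbx21, the factor that directs T cells toward interferon gamma production, was at 21.6 TPM in 4H2, against 6.3 TPM in vehicle. Gzmk and Fasl, a granzyme and the ligand of the death receptor Fas, were the others. Prf1, the pore-forming protein of killer cells, was at 13.9 TPM in 4H2 and 16.6 TPM in vehicle, and the NK receptor gene Klrd1 was at 4.7 TPM in 4H2 and 7.1 TPM in vehicle. Gzmb was at 15.3 TPM in 4H2, 8.3 TPM in the combination and 5.5 TPM in DC101, against 9.1 TPM in vehicle. A cluster of 6 granzyme genes outside this list, chosen after values were seen, went the other way. It summed to 3.2 TPM in 4H2, 6.8 TPM in the combination and 103.4 TPM in DC101, against 169.8 TPM in vehicle. The 2 of its genes that passed the filter were both at least 2-fold lower. Relative to Cd8a, Prf1 was 0.248 in 4H2 and 0.542 in vehicle, while Gzmb was 0.273 in 4H2 and 0.297 in vehicle. Ccl5 relative to Cd3e was 8.67 in 4H2 and 8.06 in the combination, against 4.55 in DC101 and 4.24 in vehicle.

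**Figure D4:**
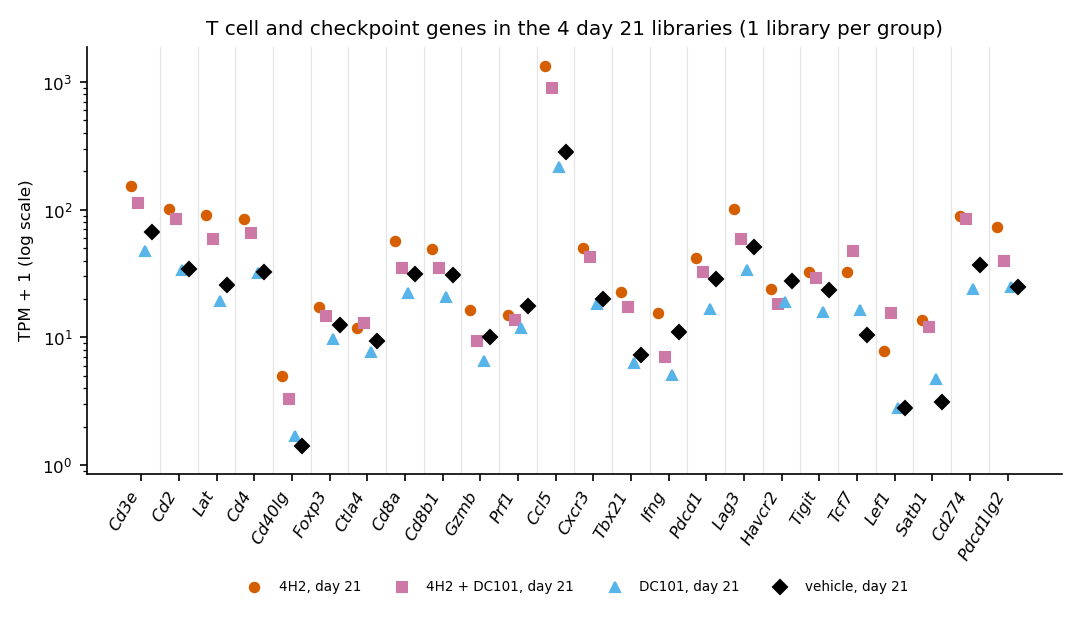
TPM + 1 on a log scale for 24 T cell and checkpoint genes in the 4 libraries of day 21, 1 library per group, in the order 4H2, 4H2 with DC101, DC101, vehicle from left to right for each gene. Cd3e, Cd4, Ccl5 and Tbx21 are high in both libraries with 4H2, while Prf1 and Havcr2 are at or below the vehicle library.

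The target of the antibody was present in every library. Pdcd1 stood at 0.8 TPM at day 3 with vehicle, 11.7 TPM at day 3 and 85.5 TPM at day 14 of gefitinib. At day 21 it was at 40.6 TPM in 4H2, 31.4 TPM in the combination and 15.8 TPM in DC101, against 27.5 TPM in vehicle. Relative to Cd3e it was 0.264 in 4H2 and 0.281 in the combination, against 0.337 in DC101 and 0.415 in vehicle. Pdcd1 was thus higher in TPM in 4H2 but lower per unit of Cd3e. An antibody that binds the protein need not alter its mRNA, so these values do not check the treatment label.

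Both PD-1 ligands were at least 2-fold higher. Cd274 was at 88.9 TPM in 4H2, 83 TPM in the combination and 23.1 TPM in DC101, against 36 TPM in vehicle. Pdcd1lg2 was at 72.5 TPM in 4H2, 38.8 TPM in the combination and 23.8 TPM in DC101, against 23.8 TPM in vehicle. Of 13 checkpoint genes these and Btla, an inhibitory receptor of lymphocytes, were at least 2-fold higher and none was lower (median 0.69). Over all genes 10.9% were higher and 20% lower. Lag3, a further inhibitory receptor, was just short of 2-fold, at 99.5 TPM in 4H2 and 50.4 TPM in vehicle. Havcr2, which encodes TIM-3, was at 23.1 TPM in 4H2 and 26.7 TPM in vehicle. Relative to Ptprc, Cd274 was 0.586 in 4H2, 0.754 in the combination and 0.33 in DC101, against 0.46 in vehicle.

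Of 13 genes of T cell exhaustion and activation 3 were at least 2-fold higher in 4H2 and none lower (median 0.60). The shares over all genes were 10.9% higher and 20% lower. The higher ones were Batf, Tox2 and Nr4a1, all transcription factors induced by antigen receptor signalling. Batf was at 84.3 TPM in 4H2, against 26.1 TPM in vehicle. Tox, the regulator of exhausted T cells, was at 23.3 TPM in 4H2 and 12.2 TPM in vehicle. The activation receptor Tnfrsf9 was at 14.9 TPM in 4H2 and 25.8 TPM in vehicle. Ifng, the gene for interferon gamma, was at 14.5 TPM in 4H2, 6 TPM in the combination and 4.1 TPM in DC101, against 10.1 TPM in vehicle. Per unit of Cd3e, Ifng was 0.0944 in 4H2, 0.0536 in the combination and 0.0874 in DC101, against 0.152 in vehicle. At day 14 of gefitinib this ratio was 0.0859, so a value below that of vehicle was not particular to 4H2.

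Genes of naive and memory T cells were split. The list summed to 380.6 TPM in 4H2 and 362.4 TPM in vehicle. Of 12, the 3 at least 2-fold higher, against 10.9% of all genes, were transcription factors of resting and stem-like T cells. Which cells carried these transcripts was not tested. Tcf7 was at 31.8 TPM in 4H2, 46.5 TPM in the combination and 15.3 TPM in DC101, against 9.5 TPM in vehicle. Satb1 was at 12.7 TPM in 4H2 and 2.1 TPM in vehicle, and Lef1 at 6.9 TPM in 4H2 and 1.8 TPM in vehicle. All 3 were higher in both libraries with 4H2 than in DC101 or vehicle, while the egress receptor S1pr1 was at 18.7 TPM in 4H2 and 23.5 TPM in vehicle. Among 11 genes of B and plasma cells 6 were higher (median 1.04), against 10.9% of all genes. The higher genes were at low levels: the B cell antigen Ms4a1 was at 3.7 TPM in 4H2 and 0.5 TPM in vehicle. Cd79b and Xbp1 of this list lay below 0, and the list summed to 299.4 TPM in 4H2 and 261.3 TPM in vehicle. Among 10 NK genes 2 were higher and 1 lower (median 0.70), close to the 10.9% higher and 20% lower of all genes, and the chemokine Xcl1, made by NK and CD8 T cells, was at 16 TPM in 4H2 and 5.6 TPM in vehicle. The lower NK gene was the granzyme gene Gzmc, with a difference of -1.10. Values of Klra genes are uncertain because the family has near-identical copies.

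Few general macrophage genes were 2-fold apart, while some activation genes differed by far more. Of 16 genes of macrophages and monocytes 1 was at least 2-fold higher and 1 lower (median 0.49), against 10.9% of all genes higher and 20% lower, and 15 of the 16 lay above 0. Adgre1, which encodes the macrophage marker F4/80, was at 254 TPM in 4H2, 195.5 TPM in the combination and 119.8 TPM in DC101, against 115.1 TPM in vehicle. Cd14, a co-receptor for bacterial lipopolysaccharide, was at 63.6 TPM in 4H2, 51.1 TPM in the combination and 113.4 TPM in DC101, against 153 TPM in vehicle. The complement genes C1qa, C1qb and C1qc, abundant in tissue macrophages, were 1.51-fold to 1.71-fold those of vehicle. Of 5 genes shared by leukocytes, a list added after values were seen, all lay above 0 and none was at least 2-fold higher (range 0.20 to 0.95). Ptprc, the highest of them, was at 151.8 TPM in 4H2 and 78.3 TPM in vehicle.

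Of 10 genes of classical activation and inflammatory cytokines 5 were at least 2-fold higher and 2 lower (median 0.95). Among all genes compared, 10.9% were higher and 20% lower. Nos2, the inducible nitric oxide synthase, was at 106 TPM in 4H2, 70.8 TPM in the combination and 8.5 TPM in DC101, against 9.7 TPM in vehicle. It had been at 10.5 TPM at day 3 and 18 TPM at day 14 of gefitinib, so both libraries with 4H2 stood above all 5 others. Acod1, which makes the macrophage metabolite itaconate, was at 75.5 TPM in 4H2, 33.4 TPM in the combination and 4.8 TPM in DC101, against 8.8 TPM in vehicle. Ptgs2, the inducible cyclooxygenase, was at 13.9 TPM in 4H2, against 2.2 TPM in vehicle. Per unit of Adgre1, Nos2 was 0.417 in 4H2 and 0.0843 in vehicle, and Acod1 was 0.297 in 4H2 and 0.0765 in vehicle. Cytokines did not share one direction: Tnf was at 45.2 TPM in 4H2 and 21.8 TPM in vehicle, but Il1b was at 7.5 TPM in 4H2 and 19.7 TPM in vehicle.

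Genes of alternative activation, the state linked to tissue repair, lay on both sides, with 3 of 12 higher and 3 lower (median 0.68). Over all genes 10.9% were higher and 20% lower. Arg1, which competes with Nos2 for arginine, was at 1.2 TPM in 4H2, 2.4 TPM in the combination and 18.5 TPM in DC101, against 18 TPM in vehicle. Chil3, a chitinase-like protein, was at 0.2 TPM in 4H2 and 4 TPM in vehicle, and the chemokine Ccl17 was at 1.5 TPM in 4H2 and 16.1 TPM in vehicle. Retnla, Clec10a and Cd163 were the genes at least 2-fold higher, with Retnla, a secreted marker of alternative activation, at 145.8 TPM in 4H2 and 47.5 TPM in vehicle. Nos2 was therefore high and Arg1 low in both libraries with 4H2, while other genes of the same 2 lists went either way. Arg2, the mitochondrial arginase, was at 2.7 TPM in 4H2 and 124.4 TPM in vehicle. In the day 3 vehicle library, whose macrophage share is the lowest, Arg1 was at 142.4 TPM and Arg2 at 210.8 TPM. The part of the epithelial share in the arginase differences was not tested.

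Genes of dendritic cells, which present antigen to T cells, were higher in 7 of 14 cases and lower in none (median 1.02). For all genes these shares were 10.9% and 20%. Clec9a, a receptor of the cross-presenting subset that primes CD8 T cells, was at 23.5 TPM in 4H2, 17.2 TPM in the combination and 6.9 TPM in DC101, against 6.3 TPM in vehicle. Batf3, the factor that this subset needs, was at 53.7 TPM in 4H2, against 16.4 TPM in vehicle. The integrin Itgax, shared with macrophages, was at 182.6 TPM in 4H2 and 196.2 TPM in vehicle. Of 14 neutrophil and alarmin genes 6 passed the filter, with 1 higher and 2 lower, against 10.9% and 20% of all genes. Ly6g was listed at 0 in every library. The list summed to 57 TPM in 4H2, 56.5 TPM in the combination and 512.6 TPM in DC101, against 299 TPM in vehicle. Most of the vehicle sum was Lcn2, also an epithelial product, at 1 TPM in 4H2 and 267.6 TPM in vehicle.

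**Figure D5:**
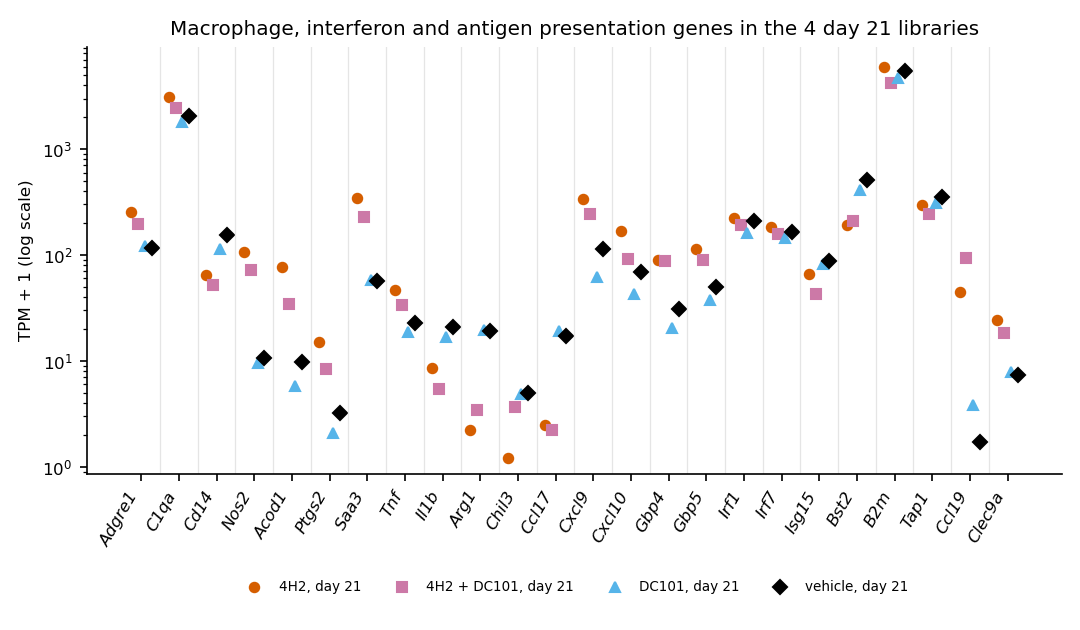
TPM + 1 on a log scale for 24 macrophage, interferon, antigen presentation and dendritic cell genes in the 4 libraries of day 21, 1 library per group, in the order 4H2, 4H2 with DC101, DC101, vehicle from left to right for each gene. Nos2, Acod1, Saa3 and Ccl19 are high and Arg1 is low in both libraries with 4H2, while B2m and Tap1 lie close together.

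Genes known to be induced by interferon gamma were uneven. Of 16 genes 4 were at least 2-fold higher and 1 lower (median 0.43), against 10.9% of all genes higher and 20% lower. Cxcl9, a chemokine that draws T cells with the receptor Cxcr3, was at 334.5 TPM in 4H2, 240.7 TPM in the combination and 60.8 TPM in DC101, against 111.8 TPM in vehicle. Cxcl10 was at 168.1 TPM in 4H2, 89.8 TPM in the combination and 41.7 TPM in DC101, against 67.5 TPM in vehicle. Gbp4 and Gbp5, guanylate binding proteins of host defence, were at 88.9 and 111.6 TPM in 4H2, against 30 and 48.3 TPM in vehicle. Irf1, a transcription factor induced early by interferon gamma, was at 221.6 TPM in 4H2 and 207.8 TPM in vehicle. These chemokines and guanylate binding proteins thus stood apart more than Irf1. Gbp2, Gbp3 and Gbp7, further guanylate binding proteins of the list, were less than 2-fold apart. Tgtp1 was lower, at 52.2 TPM in 4H2 and 350.6 TPM in vehicle, but its near-identical copy Tgtp2 was at 182.9 TPM in 4H2 and 278.6 TPM in vehicle. How shared reads were assigned is not given, and the 2 copies summed to 235.1 TPM in 4H2 and 629.2 TPM in vehicle.

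Type I interferon genes had a median of -0.38, beside -0.21 for all genes. Against 10.9% and 20% of all genes, none of 14 was at least 2-fold higher and 1 was lower. That gene was Bst2, which tethers viruses to the cell surface, at 189.4 TPM in 4H2 and 207.2 TPM in the combination, 408.2 TPM in DC101 and 513.6 TPM in vehicle. Irf7, the amplifier of the type I response, was at 180.8 TPM in 4H2 and 163 TPM in vehicle, and Isg15, a ubiquitin-like protein, was at 64.7 TPM in 4H2 and 86.6 TPM in vehicle. The medians of the interferon gamma and type I lists were 0.69 and -0.13 with muscle genes and genes higher with DC101 left out of the scale.

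The promoters of Cxcl10, Gbp5 and Bst2 are shown because they hold the same class of interferon element while their genes lay on opposite sides: Cxcl10 and Gbp5 were 2.49-fold and 2.31-fold those of vehicle, and Bst2 was 0.369-fold. The 250 bases before each RefSeq start (GRCm38.p6) are printed 5′ to 3′ on the strand of the gene. Capitals mark matches on either strand to GAS, TTCNNNGAA, an element of interferon gamma responses, to ISRE, a pair of GAAA blocks with 2 bases between them, bound by complexes with IRF proteins, and to the NF-kB site.
Cxcl10 (chr5:92348890-92349139, minus strand): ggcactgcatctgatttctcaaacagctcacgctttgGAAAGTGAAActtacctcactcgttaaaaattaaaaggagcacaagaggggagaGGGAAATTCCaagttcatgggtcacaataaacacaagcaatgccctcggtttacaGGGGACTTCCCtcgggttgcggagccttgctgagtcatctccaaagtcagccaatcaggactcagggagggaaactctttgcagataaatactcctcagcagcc
Gbp5 (chr3:142496684-142496933, plus strand): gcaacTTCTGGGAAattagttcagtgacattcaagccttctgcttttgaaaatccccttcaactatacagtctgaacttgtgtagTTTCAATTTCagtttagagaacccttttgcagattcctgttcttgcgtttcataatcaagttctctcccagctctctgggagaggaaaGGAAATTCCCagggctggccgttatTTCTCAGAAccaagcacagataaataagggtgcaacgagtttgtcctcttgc
Bst2 (chr8:71537473-71537722, minus strand): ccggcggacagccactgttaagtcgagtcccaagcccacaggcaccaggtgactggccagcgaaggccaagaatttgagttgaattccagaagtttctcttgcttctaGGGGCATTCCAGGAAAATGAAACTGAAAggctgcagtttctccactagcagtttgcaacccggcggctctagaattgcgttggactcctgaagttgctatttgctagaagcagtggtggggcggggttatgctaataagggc
The window of Cxcl10 holds 1 ISRE and 3 NF-kB matches, of which the last pair overlap, that of Gbp5 holds 2 GAS, 1 ISRE and 1 NF-kB match, and that of Bst2 holds 2 ISRE, 1 GAS and 1 NF-kB match that overlap in one run. Of the 32851 windows, 7.02% hold a GAS, 2.98% an ISRE and 7.25% an NF-kB match. In the interferon gamma list 10 of 14 matched windows hold an ISRE and 6 a GAS, and in the type I list 7 of 12 hold an ISRE and 3 a GAS. Genes with an ISRE match thus occurred in the list with a positive median and in the list with a negative one.

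Antigen presentation differed little. None of 16 genes of the class I pathway was at least 2-fold apart, and the median was -0.01. B2m, the invariant chain of class I molecules, was at 6008 TPM in 4H2 and 5434 TPM in vehicle, and the peptide transporter Tap1 was at 297 TPM in 4H2 and 352 TPM in vehicle. Of 11 class II genes 2 were higher (median 0.45), against 10.9% of all genes. They were H2-Oa and H2-Ob, which modulate peptide loading in B cells and dendritic cells, at 22.9 and 7.6 TPM in 4H2, against 7 and 2.7 TPM in vehicle. Values of the H2-Q genes are uncertain because of near-identical copies.

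Of 14 genes of T cell and monocyte chemokines and their receptors 3 were higher and 1 lower (median 0.62). Over all genes 10.9% were higher and 20% lower. Ccl19, which guides naive T cells and dendritic cells through Ccr7, was at 43.7 TPM in 4H2, 92.9 TPM in the combination and 2.8 TPM in DC101, against 0.7 TPM in vehicle. It had been at 9.5 TPM at day 14 of gefitinib. Ccl19 has near-identical copies in the mouse genome, so that its value is uncertain. Cxcr3, the receptor of Cxcl9 and Cxcl10 on T cells, was at 48.7 TPM in 4H2 and 19.1 TPM in vehicle. The monocyte attractant Ccl2 was at 57.4 TPM in 4H2 and 77.1 TPM in vehicle.

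Stroma and vessels differed less than muscle or tumor genes. The fibroblast list had a median of -0.10, with 2 of 17 genes higher and 2 lower, against 10.9% and 20% of all genes. Under 3 other scalings the fibroblast median lay just above 0. Collagen I was almost level, with Col1a1 at 4306 TPM in 4H2 and 3874 TPM in vehicle. Cthrc1, a product of matrix-producing fibroblasts, was at 6.4 TPM in 4H2 and 46.2 TPM in vehicle, while Dpt, a gene of resting fibroblasts, was at 144.9 TPM in 4H2 and 44.5 TPM in vehicle. Of 10 pericyte and smooth muscle genes 1 was higher and 3 lower (median -0.51), against 10.9% and 20% of all genes. Furthest down were Acta2 and Tagln, contractile genes of smooth muscle and activated fibroblasts. They were at 33 and 32.7 TPM in 4H2, against 188.2 and 143.5 TPM in vehicle. The higher one was Des, also of the sarcomere scaffold list, at 3063 TPM in 4H2 and 207.7 TPM in vehicle. Acta2 over Col1a1 was 0.00766 in 4H2 and 0.00727 in the combination, against 0.021 in DC101 and 0.0486 in vehicle. Of 14 matrix proteases and their inhibitors 8 were lower and none higher (median -1.09), against 20% and 10.9% of all genes. The collagenase Mmp13 was at 2 TPM in 4H2 and 17.5 TPM in vehicle.

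Endothelial genes had a median of -0.24, and under 2 other scalings this median lay at about 0. At least 2-fold lower was 1 of 16, the junction gene Esam, against 20% of all genes. Pecam1, a junction protein of all endothelium, was at 56.4 TPM in 4H2 and 67.5 TPM in vehicle. Kdr, which encodes VEGFR2, was at 10.7 TPM in 4H2, 9.3 TPM in the combination and 11.4 TPM in DC101, against 19.6 TPM in vehicle. Of 10 genes of sprouting tip cells 3 were lower (median -0.67), against 20% of all genes, including the apelin receptor Aplnr, at 9.5 TPM in 4H2 and 35.2 TPM in vehicle. Of 8 lymphatic and venule genes 1 was higher and 2 were lower (median -0.58), against 10.9% and 20% of all genes. The lower ones were Pdpn, a surface protein of lymphatic and other cells, at 37.7 TPM in 4H2 and 116.8 TPM in vehicle, and Selp, an adhesion molecule of activated endothelium, at 4.5 TPM in 4H2 and 12.2 TPM in vehicle. The higher one was the lymphatic chemokine gene Ccl21a, at 27 TPM in 4H2 and 10.5 TPM in vehicle, which has near-identical copies.

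Among energy metabolism genes the largest differences were those of muscle isoforms. Of 20 genes of the respiratory complexes 10 were at least 2-fold higher and 1 lower (median 1.0), against 10.9% and 20% of all genes. Cox6a2, the muscle isoform of a cytochrome oxidase subunit, was at 1797 TPM in 4H2 and 61.2 TPM in vehicle, whereas the widely expressed isoform Cox6a1 was at 385.7 TPM in 4H2 and 828.1 TPM in vehicle. Of 13 genes of fatty acid oxidation 5 were higher (median 0.86), against 10.9% of all genes. Fabp3, a fatty acid carrier of muscle and heart, led them at 253.1 TPM in 4H2 and 11.9 TPM in vehicle. Of 14 genes of hypoxia and glycolysis 4 were higher and 1 lower (median 0.51), against 10.9% and 20% of all genes. Among them the muscle aldolase Aldoa was at 7065 TPM in 4H2 and 902.4 TPM in vehicle. Reference genes were not level either: Gapdh was at 3833 TPM in 4H2 and 1717 TPM in vehicle, and Ppia was at 886.3 TPM in 4H2 and 2294 TPM in vehicle.

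Because muscle RNA was also higher with DC101, genes that the DC101 library did not share are listed apart. The 12 highest genes less than 2-fold higher in DC101 than in vehicle still held many of muscle, among them Vgll2, Asb2 and Sln, and also held Nos2 and Lyz1. Vgll2, a cofactor of muscle gene expression, was at 95.1 TPM in 4H2 and 52.2 TPM in the combination, against 9.5 TPM in DC101 and 4.9 TPM in vehicle. A stricter limit, chosen after the values were seen, admits genes with a DC101 difference below 0.32, and its highest genes were led by Nos2, Acod1, St8sia5, Tnni3 and Saa3. Saa3, an acute phase protein made by macrophages and other cells, was at 343.6 TPM in 4H2, 227.9 TPM in the combination and 57.3 TPM in DC101, against 55.9 TPM in vehicle. The guanylate binding protein Gbp2b was at 108 TPM in 4H2, 65.7 TPM in the combination and 14.2 TPM in DC101, against 22.6 TPM in vehicle. Gimap3, a GTPase of lymphocytes, was at 105.1 TPM in 4H2, 87.3 TPM in the combination and 25.4 TPM in DC101, against 24 TPM in vehicle. This group of 20 mixed immune genes with others. Among the others were a cardiac troponin gene, Tnni3, at 39.8 TPM in 4H2 and 5.4 TPM in vehicle, and St8sia5. Phospho1, Hspa1l, Chga, Khdrbs3 and Baiap3 were further members that are not immune genes.

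The combination library was set against the same vehicle library and shares it with the 4H2 comparison, so the 2 sets of differences are not independent. There 1638 genes (11.7%) were at least 2-fold higher and 2373 (17.0%) lower. The T cell receptor list had a median of 1.18 in 4H2 and 1.01 in the combination, with 10 of 13 genes at least 2-fold higher in 4H2 and 7 in the combination. For CD8 and cytotoxic genes the median was 0.76 in 4H2 and 0.22 in the combination. It was 0.60 in 4H2 and -0.04 in the combination for exhaustion genes, and -0.38 in 4H2 and -0.79 in the combination for type I interferon genes. The naive and memory list was larger in the combination, with 0.64 in 4H2 and 1.04 in the combination. The epithelial list had a median of -6.30 in 4H2 and -3.92 in the combination, and the fast fiber list 4.83 in 4H2 and 4.84 in the combination, so the 2 libraries were alike in muscle and unlike in epithelium. Among the genes lowest in 4H2, Gzme, one of a cluster of near-identical granzymes, was listed at 0 in 4H2 and stood at 5.1 TPM in the combination, 98.4 TPM in DC101 and 158.9 TPM in vehicle, and Tmem254c, which has near-identical copies, was listed at 0 in 4H2 and at 195.3 TPM in vehicle.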

How the data were processed

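RNA from frozen tumor tissue was depleted of ribosomal RNA and made into directional libraries, per the labels' protocols. The authors deposited TPM, rounded to 0.1, for 21892 gene symbols in 7 libraries, each summing to 1000000 when rounded to the nearest 1000. The submitters' processing notes name the build GRCm38.p6, and for aligner, counter and annotation the sources used here give no name. The depth of each library is unknown, since TPM does not hold it, and no interval is given. The 13 protein genes of mitochondrial DNA stand at 0 in every library, so a 0 is reported only as listed at 0.

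From these values differences of log2(TPM + 1) were computed for genes averaging 1 TPM or more (Python 3.11.15, pandas 2.3.3, numpy 2.4.6), with 2-fold as the limit for a call. With 1 library per group no test was run. The code was tested on simulated data. Of 49 gene lists with 681 entries, 48 had at least 3 genes compared, and 608 distinct genes entered; 3 symbols were matched through RefSeq synonyms, and 7 entries, such as Xist, Trac, Ighm and Mx1, were not analysed here. The comparison, the lists and the naming rule were chosen with earlier results of these data known.

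The naming rule takes 12 genes at each end that reach 10 TPM in one of the libraries, without predicted, ribosomal, histone, receptor segment and small RNA genes; the 12 highest that are not at least 2-fold higher with DC101; up to 3 members of each list in the direction of its median and 2 against it; and Pdcd1, Cd274, Pdcd1lg2, Cd3e, Cd4, Cd8a, Cd8b1, Foxp3, Gzmb, Prf1, Ifng, B2m, Cxcl9, Egfr, Epcam, Acta1 and Ddx3y, a Y-linked gene listed at 0 in every library. Genes named outside it were chosen after their values were seen: Ryr1, Myh7, Pax7, Myf5, Trim63, Fbxo32, Myh1, Sftpc, Lyz2, Ucp1, Dusp6, Erbb3, Mki67, Fasl, Lag3, Ptprc, Tox, C1qa, C1qb, C1qc, Tnf, Chil3, Acod1, St8sia5, Tnni3, Saa3, Gbp2b, Gimap3, Arg2, Ly6g, Tap1, Gbp5, Irf1, Tgtp2, Isg15, Ccr7, Col1a1, Pecam1 and those of the closing observations. Phospho1, Hspa1l, Chga, Khdrbs3 and Baiap3 were likewise named after their values were seen. Alternatives were pseudocounts of 0.1 and 5, dropping the filter or raising it to 5 TPM, 4 rescalings, the mean of members, and members of 1 list only.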

Additional observations from a re-analysis of the deposited data

How the results depend on the processing

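The number of genes at least 2-fold higher in 4H2 was 1528 and became 1012 with a pseudocount of 5; the other alternatives run kept it, and the number of lower genes, within 1.5 times. Of 48 lists, 17 had a median at least 2-fold apart, and 13 to 20 under the alternatives. The fibroblast median of -0.10 became 0.15 with median-of-ratios scaling, 0.16 without muscle genes and genes higher with DC101, and 0.021 without tissue genes. The endothelial median of -0.24 became 0.0021 and 0.0087 under the first 2 of these. The alternative macrophage list had a mean of -0.033 against a median of 0.68. In the combination library the exhaustion and mesenchymal medians were -0.037 and -0.054, against 0.60 and 0.38 in 4H2. Other medians that moved by over 1.5 times were, with a pseudocount of 0.1, those of slow fiber (2.26 to 3.01), epithelial (-6.30 to -7.12), gastric (-4.92 to -5.78) and skin genes (0.18 to 0.89), and with a pseudocount of 5 those of epithelial (-4.99), alveolar type 2 (-4.42), gastric (-2.77), adipocyte (1.88), ErbB (-2.16) and proliferation genes (-2.12). Without the filter the gastric median was 0 and the ErbB median -1.67. With a filter of 5 TPM the skin median was 0.93, the nerve median 0.66 and the neutrophil median -2.88. The mean of members was -4.36 for alveolar type 2, -3.56 for gastric, -1.38 for neutrophil and -2.45 for ErbB genes. The cause was not tested. Of 193 named genes at least 2-fold apart, 29 no longer were with a pseudocount of 5, and none reversed. After rescaling without muscle genes and genes higher with DC101, 8 no longer were. Muscle and DC101-higher genes held 17.6% of TPM in 4H2 and 1.22% in vehicle. No paired analysis was possible because each group has 1 library. Depth is unknown.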

Other observations

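Some gene groups outside the lists above also differed between the 2 libraries. They were chosen after their values were seen. Beside the counts below, 10.9% of all genes were higher in 4H2 and 20% lower. Of 17 clock genes and their targets 8 were at least 2-fold higher in 4H2 and 1 lower. Dbp, a clock output factor, was at 177.1 TPM in 4H2, 201 TPM in the combination and 48.2 TPM in DC101, against 23.3 TPM in vehicle. Nr1d1, a repressor in the clock loop, was at 136.7 TPM in 4H2, against 41.1 TPM in vehicle. Its target Arntl, the clock activator, was at 4.7 TPM in 4H2, 4.3 TPM in the combination and 8.8 TPM in DC101, against 9.8 TPM in vehicle. Arntl and Dbp thus lay on opposite sides, Arntl by less than 2-fold. The gene at least 2-fold lower was Npas2, at 0.7 TPM in 4H2 and 3.3 TPM in vehicle. The hour at which tumors were taken is not given. Muscle and epithelial RNA shares also differed between these libraries, and their part in the clock gene values was not tested.

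Of 17 Hox and limb patterning genes 13 were at least 2-fold higher in 4H2 and none lower (median 1.72). Hoxd9 was at 28.4 TPM in 4H2, against 5.1 TPM in vehicle, and Pitx1, a factor of the hind limb, was at 9.2 TPM in 4H2, 6.8 TPM in the combination and 2.3 TPM in DC101, against 0.6 TPM in vehicle. Hoxb6, which was highest in the day 3 vehicle library at 23 TPM, was at 6.8 TPM in 4H2 and 13.6 TPM in vehicle. Of 9 metallothionein and antioxidant genes 6 were lower, among them Mt2, a metal-binding protein, at 127.5 TPM in 4H2, against 1540 TPM in vehicle. Muscle and epithelial RNA shares differed between the same libraries, and their part in the Hox and metallothionein values was not tested.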
